A study of Mus musculus with 8 samples.

Results

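The coat and CIDE genes of the lipid droplet were followed in the liver transcriptomes of mice bred to lack *Usp39*, a spliceosome component, in hepatocytes. They comprise 10 genes chosen by symbol, namely *Plin2*, *Plin3*, *Plin4*, *Plin5*, *Cidea*, *Cideb*, *Cidec*, *Fitm1*, *Fitm2* and *Hilpda*, and all 10 were found among the 55385 gene identifiers of the deposited table. RNA was sequenced from whole liver of 4 male *Usp39*-HKO mice (hereafter knockout) and 4 male littermate controls, each 5 weeks of age and fasted for 16 h, with 1 library per mouse. In *Usp39*-HKO mice, which are on a C57BL/6J background, *Usp39* fl/fl alleles with a floxed exon 2 are recombined by Albumin-Cre, a transgene active in hepatocytes. The labels give the controls as WT, and whether they carry floxed alleles without Cre is not given in the sources used here. Mice are named below as in their labels, A468, A472, A473 and A475 for controls and A469, A470, A471 and A474 for *Usp39*-HKO mice.

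A lipid droplet is a core of triglyceride and sterol ester inside a phospholipid monolayer, and its protein coat decides which lipases and fusion factors reach the lipid. Perilipins (Plin) sit on the monolayer and shield it from lipases, CIDE proteins gather at droplet contacts and drive lipid transfer from smaller to larger droplets, and FITM proteins act in the endoplasmic reticulum where droplets bud. Hilpda is a small inhibitor of the triglyceride lipase Pnpla2. In hepatocytes the coat changes with fasting and with fat load, since several of these genes are known targets of PPAR receptors.

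Total counts per mouse ranged from 8589636 to 10418450, and 3 counts, taken as the floor, amount to 0.288 to 0.349 CPM, which corrects for depth alone (counting error only). Levels are given as FPKM, which scales counts to exon length and to the total of the mouse. *Usp39* itself was at 9.58 ± 0.71 FPKM in controls and 8.44 ± 0.29 FPKM in knockout livers (SD, n = 4), and its log2 fold change was -0.41 ± 0.11 (SE, edgeR adjusted p = 0.0212), in counts that span the whole gene and all liver cells. That call was lost with limma on FPKM, without TMM (-0.18, adjusted p = 0.241), without *Usp39*-HKO mouse A474 (adjusted p = 0.0615) and without control A475 (adjusted p = 0.0547). It was also lost under the study's cutoff, which asks for a log2 fold change below -0.5. Albumin, the main secreted protein of hepatocytes, was at 7956 ± 533 and 8423 ± 1155 FPKM (SD, *Alb*), and 5 of 10 hepatocyte markers tested were lower in knockout livers while none was higher. The number lower was 2 without TMM and 1 with limma on FPKM, so it depends on the scaling between mice. Markers of other cells moved as well, as 7 of the 9 macrophage markers tested, 8 of the 10 stellate cell markers and 4 of the 5 cholangiocyte markers tested were higher. Of all genes tested, 10.9% were higher and 11.6% lower. Summed over a list, macrophage markers went from 350 to 468.9 FPKM in controls to between 634 and 988 FPKM in knockout livers, stellate cell markers from 81.4 to 94.4 FPKM to between 128 and 285.5 FPKM, and cholangiocyte markers from 34.5 to 36.8 FPKM to between 73.6 and 297 FPKM. None of the genes in these lists was at 0 in every mouse. Endothelial markers were mixed, with 2 of 8 lower and none higher. The number lower differed in at least 13 of the other fits run, and in 5 of the other fits some were higher. Control mouse A475 stood apart, as its 8 exocrine pancreas markers summed to 555 FPKM against at most 2.52 FPKM in any other mouse, so the calls are also given without it. Without that mouse the calls numbered 5 for macrophage, 7 for stellate cell and 3 for cholangiocyte markers, all higher, and 2 for hepatocyte markers and 1 for endothelial markers, all lower. Without TMM, the scaling between mice, the median gene lay 0.23 above the controls on the log2 scale, and -0.0015 with it, so fold changes below are relative to the median gene whereas FPKM are not.

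Of the 10 genes, 9 reached 0.5 FPKM in at least 4 mice and were tested with edgeR. *Plin2*, *Cidec* and *Hilpda* rose, *Fitm1* fell, and *Plin3*, *Plin4*, *Plin5*, *Cideb* and *Fitm2* did not pass an adjusted p of 0.05. Among all 14340 genes tested, 22.5% passed, 10.9% higher and 11.6% lower, so 4 of 9 has to be read against a background in which many genes changed. The median log2 fold change of the 9 genes was 0.04, against -0.0015 over all genes tested. In FPKM, 3 of the 9 genes were higher in every *Usp39*-HKO mouse than in every control, as were 23.9% of all genes tested, and 1 was lower, as were 4.81% of all genes. In whole liver, a change in the number of cells of a type and a change in RNA per cell cannot be told apart.

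**Figure D1:**
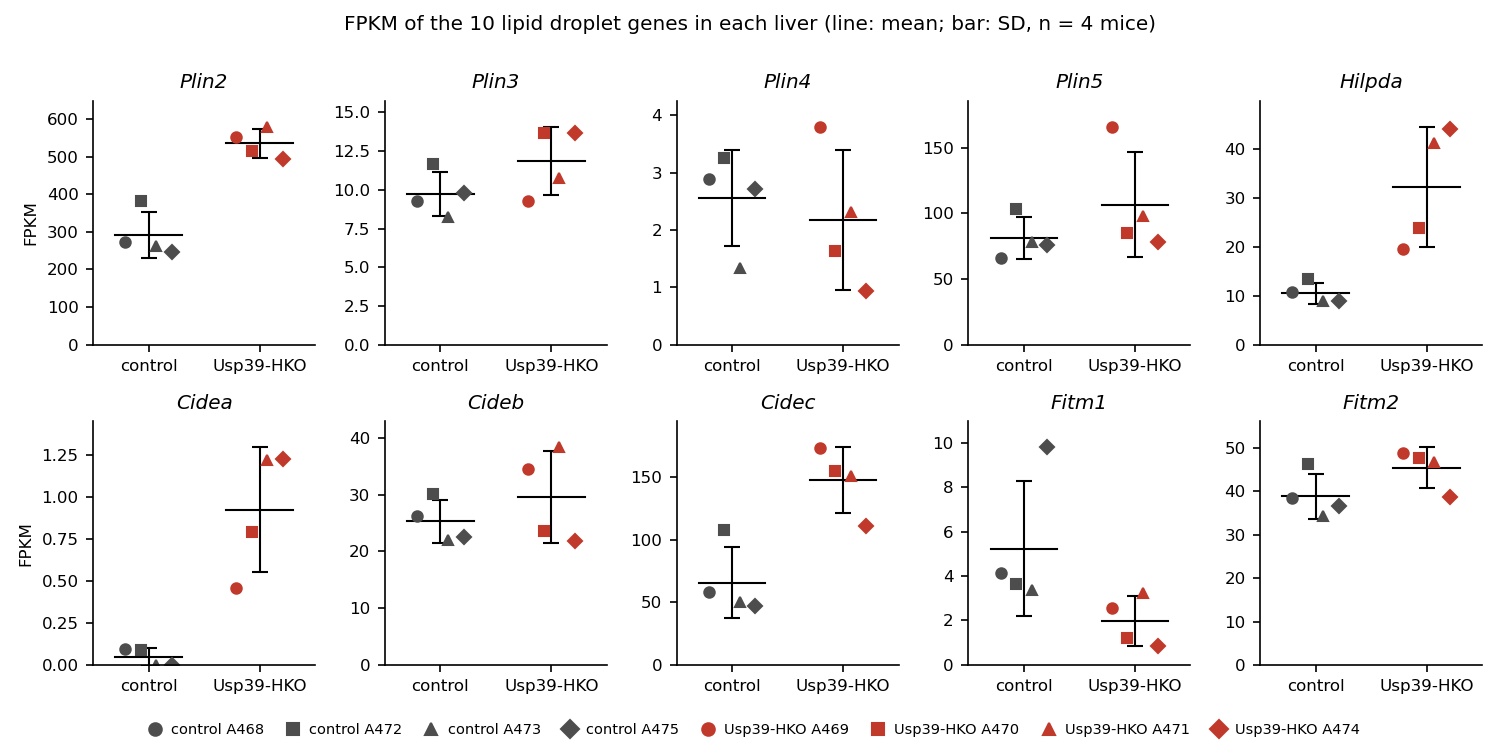
Each panel plots FPKM (y axis, linear, from 0) of 1 gene in the 4 control and 4 Usp39-HKO livers, with the mean as a line and the SD as a bar. Plin2, Hilpda, Cidea and Cidec have all 4 Usp39-HKO points above the controls, Fitm1 has them below, and 1 control (mouse A475, 9.79 FPKM) lies far above the other Fitm1 values.

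The levels of these genes covered a wide range. Since FPKM is scaled to exon length, levels can be compared between genes. In controls *Plin2* was the most abundant at 291 ± 61.3 FPKM (SD, n = 4), which ranked 165 among the 14340 genes tested, and it stood above *Plin5* in 4 of 4 mice without overlap of their ranges. *Plin5* (80.9 ± 16.0 FPKM) and *Cidec* (65.7 ± 28.2 FPKM) followed, with overlapping ranges. *Fitm2* (38.9 ± 5.19 FPKM) and *Cideb* (25.3 ± 3.77 FPKM) came next and did not overlap with each other or with the genes beside them in the order. *Hilpda* (10.5 ± 2.16 FPKM) overlapped with *Plin3* (9.73 ± 1.43 FPKM) and that with *Fitm1* (5.23 ± 3.05 FPKM), and *Plin4* (2.55 ± 0.84 FPKM) was the lowest of the tested genes. *Plin1*, the perilipin of fat cells, had 3 counts in all controls together and 6 in all knockout livers.

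The order differed in knockout livers. *Plin2* again led, at 535 ± 37.6 FPKM and rank 76. *Cidec* (148 ± 26.2 FPKM) was now second, and it was above *Plin5* (107 ± 40.1 FPKM) in 4 of 4 mice although the ranges over mice overlapped. *Hilpda* (32.1 ± 12.3 FPKM) stood beside *Cideb* (29.6 ± 8.05 FPKM) with overlapping ranges, and *Fitm1* (1.97 ± 1.11 FPKM) beside *Plin4* (2.17 ± 1.22 FPKM).

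*Plin2* encodes the main droplet coat protein of hepatocytes. It lies on chromosome 4 (GRCm38, 86648386 to 86670060, minus strand), and its exons share no base with another annotated gene. The 300 bases around its RefSeq start, chr4:86670010-86670309 on the minus strand, are shown because *Plin2* is the most abundant coat gene and rose.
Plin2: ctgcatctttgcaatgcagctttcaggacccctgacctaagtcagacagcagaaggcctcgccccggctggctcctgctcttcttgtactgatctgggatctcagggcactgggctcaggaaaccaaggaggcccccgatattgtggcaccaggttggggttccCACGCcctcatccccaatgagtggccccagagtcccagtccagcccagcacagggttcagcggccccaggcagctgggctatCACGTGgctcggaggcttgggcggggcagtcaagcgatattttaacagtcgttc
The window runs 5′ to 3′ from 250 bases before the start to 50 from it on, and capitals mark matches to the letters AGGNCANAGGNCA (a direct repeat read by PPAR with RXR), ACGTG and GCGTG (the cores read by hypoxia-inducible factors) or CACGTG (an E-box, which holds ACGTG on both strands). The 2 matches in it are the E-box at position -4, counting the start as 0, and GCGTG on the opposite strand (printed as CACGC) at position -86.

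In the controls *Plin2* was at 274 FPKM in mouse A468, 381 in mouse A472, 263 in mouse A473 and 245 in mouse A475. In the knockout livers it was at 552 FPKM in mouse A469, 516 in mouse A470, 578 in mouse A471 and 494 in mouse A474. The groups did not overlap, control A472 being the closest of the controls (exact permutation test over the 70 assignments of the 8 mice, two-sided p = 0.0286, the smallest possible). After TMM scaling of the library sizes the gap nearly closed, at 1450 CPM in control A472 and 1462 CPM in *Usp39*-HKO A474. The log2 fold change from edgeR was 0.65 ± 0.17 (SE), with a 95% interval of 0.29 to 1.01 and an adjusted p of 0.0173, a fold of 1.57. Without TMM it was 0.88. Leaving out control A468, A473 or A475 took the adjusted p to 0.0530, 0.0615 or 0.0614, at log2 fold changes of 0.63, 0.61 and 0.57, so the call depends on each of these controls while the direction held in all 8 such fits. Macrophages also express *Plin2*, and the part of the higher macrophage markers in its rise was not tested.

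*Plin3*, *Plin4* and *Plin5* are the other perilipins measured. *Plin3*, which moves from the cytosol to newly formed droplets, ranged from 8.24 to 11.6 FPKM in controls and from 9.29 to 13.7 in knockout livers, with a log2 fold change of 0.04 and a 95% interval of -0.25 to 0.33 (edgeR adjusted p = 0.858). *Plin5*, which links droplets to mitochondria in tissues that burn fat, was at 65.8, 104, 78.3 and 75.9 FPKM in controls A468, A472, A473 and A475. In knockout livers A470, A471 and A474 *Plin5* was at 85.0, 97.6 and 78.1 FPKM, inside the control range, and only mouse A469 was above it at 166 FPKM. Its log2 fold change was 0.19 (-0.36 to 0.74, adjusted p = 0.640), and it was -0.14 without mouse A469. *Plin4*, a perilipin of fat and muscle, ranged from 1.34 to 3.26 FPKM in controls and from 0.930 to 3.79 FPKM in knockout livers, again with mouse A469 the highest, and its log2 fold change was -0.44 (-1.30 to 0.42, adjusted p = 0.462).

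*Plin4* and *Plin5* are neighbours on the minus strand of chromosome 17, 1797 bases apart, and *Lrg1*, a secreted acute-phase protein, lies 2081 bases beyond *Plin5*. *Lrg1* was also highest in mouse A469, at 549 FPKM against 148 to 196 FPKM in the other knockout livers and 253 to 510 FPKM in controls. Its log2 fold change was -0.73 ± 0.41 (SE, edgeR adjusted p = 0.230).

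**Figure D2:**
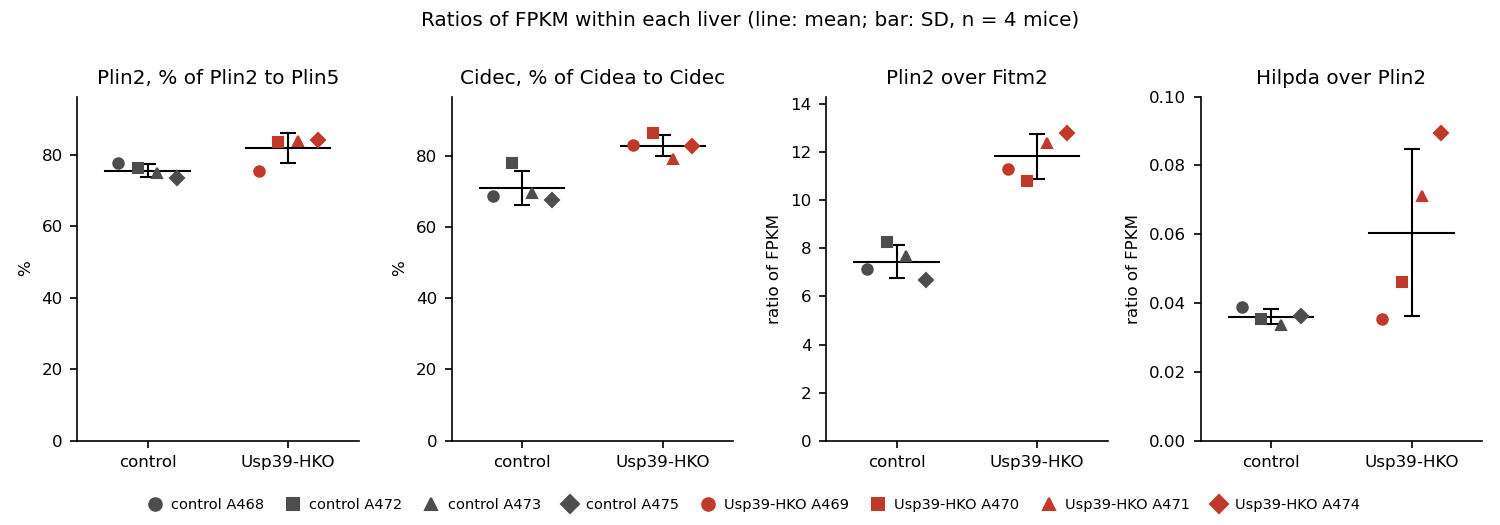
Each panel plots a ratio of FPKM within a liver (y axis, percent or ratio, from 0) for the 4 control and 4 Usp39-HKO mice, with the mean as a line and the SD as a bar. Cidec as a percent of CIDE FPKM and Plin2 over Fitm2 do not overlap between groups, whereas Usp39-HKO mouse A469 falls among the controls for Plin2 as a percent of perilipin FPKM and for Hilpda over Plin2.

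Ratios within a liver do not depend on the scaling between mice. *Plin2* made up 73.5 to 77.8% of the summed FPKM of *Plin2*, *Plin3*, *Plin4* and *Plin5* in controls. In knockout livers A470, A471 and A474 it made up 83.7 to 84.2%, and in mouse A469 it made up 75.5%, inside the control range. *Plin5* made up most of the rest, at 18.7 to 22.7% in controls, 13.3 to 14.2% in knockout livers A470, A471 and A474, and 22.7% in mouse A469. The sum over these perilipins was 334 to 499.5 FPKM in controls and 586 to 731 FPKM in knockout livers. *Plin2* over *Plin3* was 25.1 to 32.7 in controls and 36.1 to 59.4 in knockout livers, so the groups did not overlap. *Plin2* over *Fitm2* was likewise 6.69 to 8.25 and 10.8 to 12.8.

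*Cidec* encodes the CIDE protein of large droplets, known from white fat and from fatty liver. It lies on chromosome 6 (113424634 to 113435760, minus strand). Of its 2 RefSeq starts, the window of the one at the gene's 5′ end, chr6:113435711-113436010 on the minus strand, is shown since *Cidec* rose and moved up in the order of levels.
Cidec: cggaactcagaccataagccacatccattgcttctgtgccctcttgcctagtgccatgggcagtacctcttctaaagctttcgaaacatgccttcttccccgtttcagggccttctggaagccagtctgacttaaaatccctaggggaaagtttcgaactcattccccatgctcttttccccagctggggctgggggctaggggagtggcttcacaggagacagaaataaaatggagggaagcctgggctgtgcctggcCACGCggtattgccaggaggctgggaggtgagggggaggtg
The capitals mark GCGTG on the opposite strand (printed as CACGC) at position 9, and no direct repeat was found in the letters of either window.

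In controls *Cidec* was at 58.0 FPKM in mouse A468, 107 in mouse A472, 50.2 in mouse A473 and 47.1 in mouse A475. In knockout livers it was at 173 FPKM in mouse A469, 155 in mouse A470, 151 in mouse A471 and 111 in mouse A474. Control A472 nearly met *Usp39*-HKO A474 in FPKM, and after TMM scaling of the library sizes these mice crossed, at 216 and 174 CPM, with exact permutation p-values of 0.0286 for FPKM and 0.0571 for scaled CPM. The edgeR log2 fold change was 0.95 ± 0.26 (SE, 95% interval 0.38 to 1.52, adjusted p = 0.0236), a fold of 1.93. Without control A468, A473 or A475 the log2 fold change of *Cidec* was 0.89, 0.84 or 0.81 and the adjusted p 0.066, 0.076 or 0.073, and without control A472 it was 1.29 with an adjusted p of 0.00227.

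*Cideb*, which serves the lipid loading of very low density lipoprotein in hepatocytes, was at 22.1 to 30.2 FPKM in controls and 21.9 to 38.3 FPKM in knockout livers. Its log2 fold change was 0.01, with a 95% interval of -0.44 to 0.46 (edgeR adjusted p = 0.985). *Nop9*, on the opposite strand, covers 76.3% of the exon bases of *Cideb*, and since strand-specific counting is not given in the sources used here, reads of the pair cannot be told apart there. *Nop9* was at 5.90 to 6.93 FPKM in controls and 6.94 to 8.45 FPKM in knockout livers, with a log2 fold change of 0.00 (adjusted p = 0.998). *Cidec* made up 67.6 to 78.0% of the CIDE FPKM in controls and 79.3 to 86.3% in knockout livers, without overlap. *Cidec* over *Cideb* was 2.09 to 3.56 in controls and 3.95 to 6.54 in knockout livers.

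*Cidea*, the CIDE gene of brown fat that is also known from fatty liver, was near the limit of detection and was not among the 9 genes tested. It had 1, 1, 0 and 0 counts in controls A468, A472, A473 and A475, all below the floor of 3 counts. The counts were 5, 9, 13 and 13 in *Usp39*-HKO mice A469, A470, A471 and A474, so every *Usp39*-HKO mouse was above every control (exact permutation test on log2(FPKM + 1), two-sided p = 0.0286). Over the groups these are 40 counts against 2, a ratio per total count of 19.6 with a 95% counting interval of 5.08 to 167. That interval treats the pooled counts as the unit and leaves out the spread between mice. When every gene with a count was fitted, edgeR gave *Cidea* a log2 fold change of 3.75 ± 0.75 (SE, adjusted p = 0.000716). The level stayed low, at 0.461 to 1.23 FPKM. Of 8 adipocyte markers, *Lep* and *Retn* were at 0 in all mice, *Adipoq* had at most 2 counts in any mouse, and *Fabp4* and *Car3* were the 2 that were tested, neither passing an adjusted p of 0.05. Summed adipocyte markers, most of them *Car3*, were 38.6 to 91.0 FPKM in controls and 53.4 to 80.5 FPKM in knockout livers. *Tubb6*, a tubulin gene 22931 bases to the right of *Cidea* and its nearest neighbour on that side, rose from 4.60 ± 2.26 to 23.9 ± 2.23 FPKM (SD, edgeR log2 fold change 2.13 ± 0.25 SE, and 2.03 without control A475). *Impa2*, the nearest on the left at 21131 bases, had a log2 fold change of 0.24 (edgeR adjusted p = 0.433). Of the 18 genes next to the 10 on their chromosomes, 15 were tested, and 1 was higher and 2 lower, against 10.9% higher and 11.6% lower among all genes tested. Besides *Tubb6* the calls were *Dcaf11*, beside *Fitm1*, and *Dhrs1*, beside *Cideb*, both lower, the latter lost without control A475 (edgeR adjusted p = 0.0711).

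*Hilpda* encodes an inhibitor of Pnpla2 that is induced by hypoxia and by fatty acids. It lies on chromosome 6 (29272488 to 29275446, plus strand). Of the 2 overlapping windows around its RefSeq starts, chr6:29272376-29272675 on the plus strand is shown, since it holds the matches of both and *Hilpda* rose most among the genes tested.
Hilpda: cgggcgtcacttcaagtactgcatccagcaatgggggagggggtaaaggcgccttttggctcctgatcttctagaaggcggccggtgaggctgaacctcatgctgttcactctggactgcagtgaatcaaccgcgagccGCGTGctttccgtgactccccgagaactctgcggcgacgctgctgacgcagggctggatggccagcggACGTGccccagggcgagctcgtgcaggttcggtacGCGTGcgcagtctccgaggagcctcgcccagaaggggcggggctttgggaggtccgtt
The capitals mark GCGTG at position -111, ACGTG at position -43 and GCGTG at position -8. A match is a description of letters and not a site in use.

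In controls *Hilpda* was at 10.7 FPKM in mouse A468, 13.4 in mouse A472, 8.87 in mouse A473 and 8.88 in mouse A475. In knockout livers it was at 19.5 FPKM in mouse A469, 23.8 in mouse A470, 41.1 in mouse A471 and 44.1 in mouse A474. The groups did not overlap, and the *Usp39*-HKO mice fell into a lower and a higher pair (exact permutation test, two-sided p = 0.0286). The edgeR log2 fold change of *Hilpda* was 1.37 ± 0.24 (SE, 95% interval 0.84 to 1.89, adjusted p = 0.00316), a fold of 2.58, and it passed in all 8 fits that left out a mouse, at log2 fold changes of 1.20 to 1.54 and adjusted p-values up to 0.0151.

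*Hilpda* did not track *Plin2* among the *Usp39*-HKO mice. *Hilpda* over *Plin2* was 0.0337 to 0.0390 in controls, 0.0353 in mouse A469, 0.0462 in mouse A470, 0.0711 in mouse A471 and 0.0893 in mouse A474. The order of *Hilpda* among these mice was that of the cholangiocyte markers, whose mean log2(FPKM + 1) was 2.61 in mouse A469, 3.37 in mouse A470, 3.43 in mouse A471 and 4.13 in mouse A474, and 2.13 to 2.25 in controls. Macrophage markers were at 5.64, 5.82, 5.71 and 6.32 on the same scale in mice A469, A470, A471 and A474, and at 4.86 to 5.24 in controls. The part of these cells in the rise of *Hilpda* was not tested.

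*Fitm1* and *Fitm2* encode proteins of the endoplasmic reticulum that bind triglyceride and help droplets to bud. *Fitm1* lies on chromosome 14 (55575617 to 55576954, plus strand) and *Fitm2* on chromosome 2 (163466379 to 163472629, minus strand). *Fitm1*, known best from skeletal muscle, was at 4.15 FPKM in control A468, 3.64 in control A472, 3.36 in control A473 and 9.79 in control A475. In knockout livers it was at 2.54 FPKM in mouse A469, 1.21 in mouse A470, 3.24 in mouse A471 and 0.869 in mouse A474. All knockout livers were below all controls, with a narrow gap between mouse A471 and control A473 (exact permutation test, two-sided p = 0.0286), and the values rest on 8 to 99 counts per mouse. The edgeR log2 fold change was -1.63 ± 0.46 (SE, 95% interval -2.64 to -0.63, adjusted p = 0.0257). The high control is mouse A475, the one with exocrine pancreas markers, and without it the log2 fold change of *Fitm1* was -1.14 with an adjusted p of 0.096. Without *Usp39*-HKO mouse A470 or A474 the values were -1.45 (adjusted p = 0.063) and -1.36 (adjusted p = 0.065). Of 8 striated muscle markers none reached the filter, *Ckm* and *Myh4* were at 0 in all mice, and their sum was at most 1.44 FPKM in controls and 1.30 FPKM in knockout livers. An antisense gene, *Gm15932*, covers 11.2% of the exon bases of *Fitm1*.

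*Fitm2*, the widely expressed member of the pair, had the lowest coefficient of variation (SD over mean) of the 10 genes in controls. It ranged from 34.2 to 46.2 FPKM in controls and from 38.6 to 48.8 FPKM in knockout livers, and its log2 fold change had a 95% interval of -0.30 to 0.31 (edgeR adjusted p = 0.999). This coefficient was 13.4% in controls and 10.2% in knockout livers, against 58.4% and 56.7% for *Fitm1*. An antisense gene, *2310001K24Rik*, covers 5.72% of the exon bases of *Fitm2*.

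**Figure D3:**
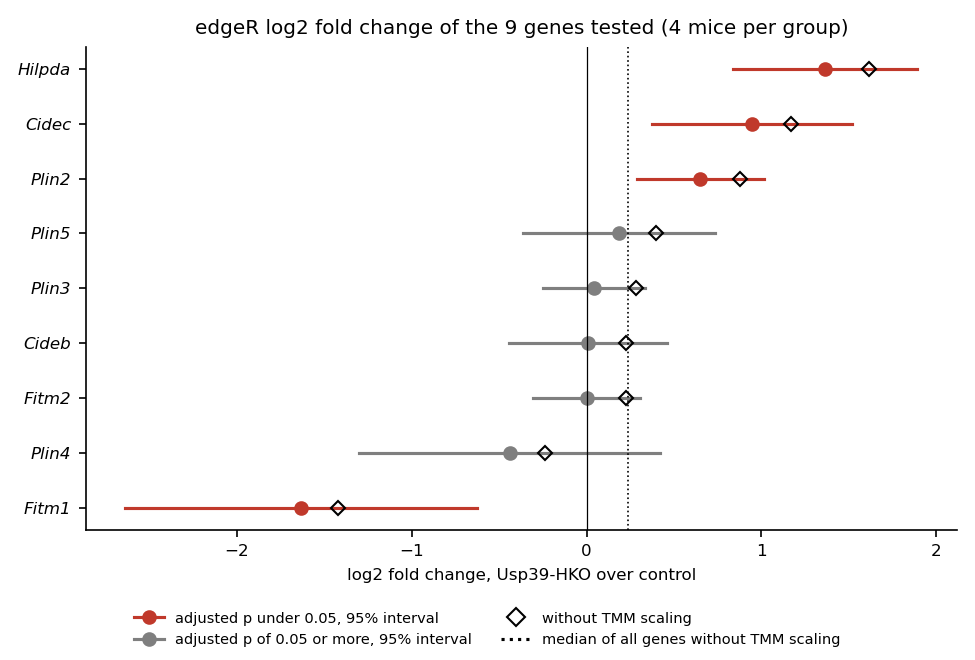
Points give the edgeR log2 fold change between Usp39-HKO and control (x axis) for the 9 genes tested, with bars for the 95% interval, and diamonds give the value without TMM scaling. Hilpda, Cidec and Plin2 lie to the right of 0 and Fitm1 to the left, the intervals of the other 5 genes include 0, and without TMM every gene moves to the right, as does the median of all genes (dotted, 0.23).

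**Figure D4:**
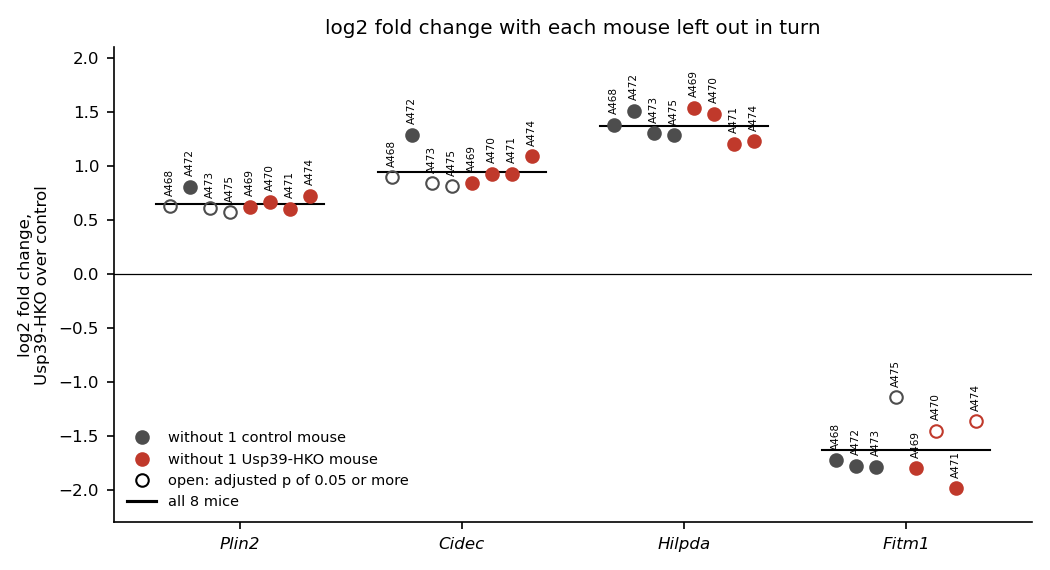
Points give the edgeR log2 fold change (y axis) of the 4 called genes with each of the 8 mice left out in turn, labelled by mouse and open where the adjusted p was 0.05 or more, and lines give the value with all mice. Hilpda stays filled in all 8 fits, while Plin2, Cidec and Fitm1 each have 3 open points.

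The letters searched were found in these promoters as follows. RefSeq windows on GRCm38.p6 were given for 9 of the 10 genes, 12 windows in all, and the background is 32851 windows of 300 bases, both strands searched. AGGNCANAGGNCA was in 0 of the 12 windows and in 0.381% of all windows. ACGTG was in 2 of the 12, those of *Plin2* and the downstream start of *Hilpda*, and in 19.6% of all windows. GCGTG was in 9 of the 12, from 6 genes, and in 32.4% of all windows. The windows of *Hilpda* overlap and share a GCGTG match, as do those of *Plin5*, so the 9 are not separate observations. CACGTG was in 1, that of *Plin2*, and in 7.15% of all windows. CCAAT was in 4 of the 12 and in 37.4% of all windows, and TATAAA was in 1, that of *Cideb*, and in 13.6% of all windows, and these 2 are not marked in capitals. No match says only that these letters are not in the window.

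Other genes of the droplet were taken from a list of 23 that act in droplet formation, lipid synthesis and lipolysis, of which 21 were tested. Of these, 1 was higher and 5 were lower in knockout livers (28.6% called, against 22.5% of all genes tested), with a median log2 fold change of -0.21. Without TMM 5 were higher and 3 lower, but there 4211 genes were called in all, against 3225 with it. The median gene also lay 0.23 higher without TMM. *Nsdhl*, a sterol synthesis enzyme found on droplets, was at 3.33 to 4.53 FPKM in controls and 7.05 to 9.13 FPKM in knockout livers (log2 fold change 0.80 ± 0.13 SE, edgeR adjusted p = 0.00263). *G0s2*, an inhibitor of Pnpla2 like *Hilpda*, was at 381 to 465.5 FPKM in controls and 284 to 372 FPKM in knockout livers, so it fell where *Hilpda* rose (log2 fold change -0.59 ± 0.13 SE, adjusted p = 0.00947), a call that was lost with limma on log2(FPKM + 1) at -0.36 (adjusted p = 0.0569). *Dgat2*, the last enzyme of triglyceride synthesis, had a log2 fold change of -0.72 ± 0.19 (SE, adjusted p = 0.0221), with mouse A469 at 112 FPKM inside the control range of 108.5 to 132 FPKM. *Vps13c*, a lipid carrier at droplet contacts, fell by 0.86 on the log2 scale, *Bscl2*, which encodes seipin, by 0.44 and *Aup1* by 0.43. The calls of *Nsdhl*, *G0s2* and *Vps13c* held in all 8 fits without 1 mouse, those of *Dgat2* and *Aup1* in 4 and that of *Bscl2* in 2, and without control A475 those of *Aup1* and *Bscl2* were lost. The lipase *Pnpla2* had a log2 fold change of 0.38 ± 0.19 (SE, adjusted p = 0.180) and its activator *Abhd5* of 0.14 ± 0.11 (SE, adjusted p = 0.409). *Mettl7b*, the most abundant gene of the list, was at 544 ± 42.7 and 521 ± 111 FPKM (SD, adjusted p = 0.211).

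With edgeR, PPAR targets of the fasted liver were called at a share near that of all genes. Of 17 tested, 2 were higher and 1 lower (17.6% called, against 22.5% of all genes tested), with a median log2 fold change of -0.17. Without TMM 2 were higher and 0 lower, where 4211 genes were called in all, against 3225 with it. DESeq2 called 2 higher and 5 lower, and 3504 genes in all, so the count depends on the fit. *Pdk4*, which holds back pyruvate oxidation, rose from 40.8 ± 15.5 to 189 ± 68.8 FPKM (SD, n = 4), and *Cd36*, a fatty acid transporter, from 38.0 ± 12.3 to 116 ± 34.1 FPKM. Their log2 fold changes were 1.96 ± 0.28 and 1.36 ± 0.22 (SE), and both passed in all 8 fits without 1 mouse. *Cyp4a10*, a fatty acid hydroxylase, fell by 0.61 on the log2 scale, a call that held in 3 of those 8 fits and was lost without control A475 (adjusted p = 0.0704). *Cyp4a14*, the most abundant gene of this list, was at 2753 ± 228 and 2397 ± 278 FPKM (SD, edgeR adjusted p = 0.0964). Of the 6 receptors and partners tested, *Ppara* fell by 0.83 on the log2 scale, from 57.5 to 76.1 FPKM in controls to between 39.8 and 53.1 FPKM, and by 0.83 without control A475 as well (adjusted p = 0.00947). None of the 6 was called higher, and 1 was without that mouse. *Pparg*, the receptor of fat cells, had a log2 fold change of 0.43 ± 0.17 (SE, adjusted p = 0.0924), and *Rxra* of -0.30 ± 0.15 (SE, adjusted p = 0.179).

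Hypoxia targets, of which *Hilpda* is known to be one, were called in both directions. The list also holds *Hif1a* and *Epas1*, which encode hypoxia-inducible factors, and both are counted here. Of 13 tested, 2 were higher and 3 lower, against 10.9% higher and 11.6% lower among all genes tested, with a median log2 fold change of -0.11. Without TMM 3 were higher and 3 lower, where 4211 genes were called in all, against 3225 with it. *Pfkfb3*, a regulator of glycolysis, rose by a log2 fold change of 0.79 ± 0.22 (SE) and *Adm*, a vasodilator peptide, by 0.61 ± 0.19 (SE), calls that held in 4 and 0 of the 8 fits without 1 mouse and were both lost without control A475. *Pdk1* fell by 1.03 on the log2 scale, *Vegfa*, the growth factor of vessels, by 0.62 and *Bnip3*, a mitophagy receptor, by 0.62, and these 3 held in all 8. *Epas1*, which encodes a hypoxia-inducible factor, was at 43.2 ± 4.58 and 41.6 ± 6.12 FPKM (SD, edgeR adjusted p = 0.180).

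**Figure D5:**
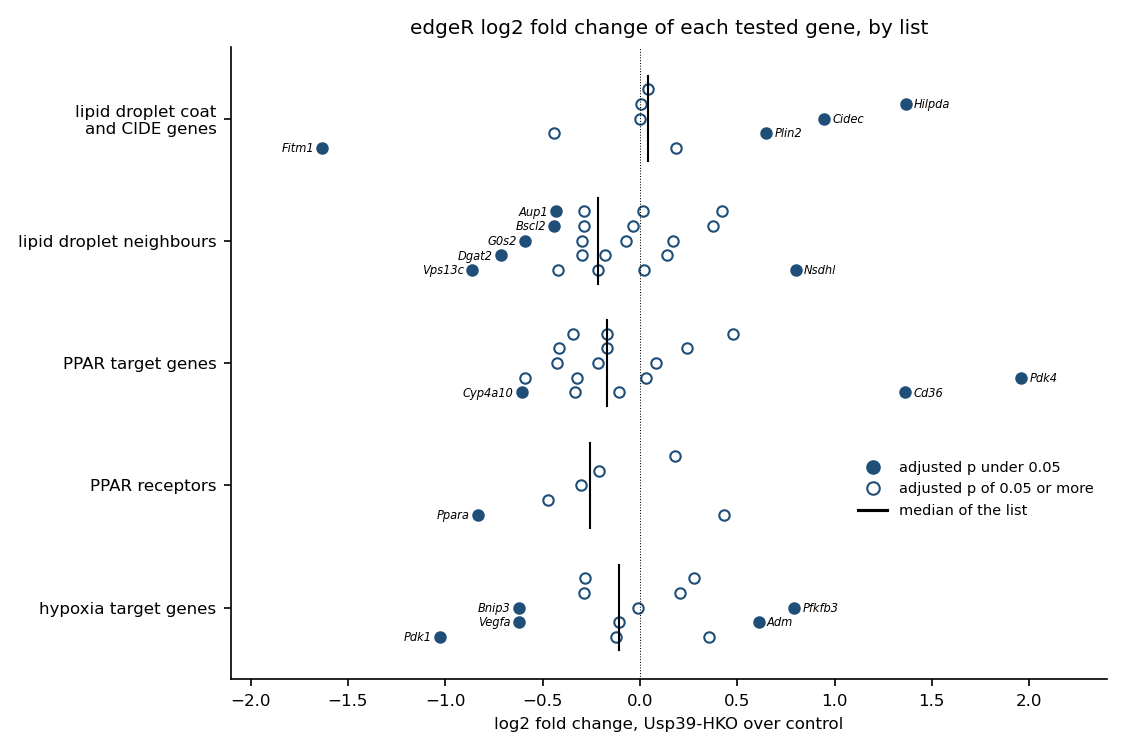
Each point is the edgeR log2 fold change between Usp39-HKO and control (x axis) of a tested gene, in rows by list, filled and named where the adjusted p is under 0.05, with the list's median as a vertical line. Hilpda (1.37) lies to the right of all tested hypoxia targets and G0s2 (-0.59) on the other side of 0, and the medians of the other 4 lists lie between -0.26 and -0.11.

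The genes most like the called ones were taken as those with the smallest root mean square difference in centred log2(FPKM + 1) over the 8 mice among all genes tested. Since they were picked by their profile over these mice, a shared order of mice or direction follows from the choice and is description only. For *Plin2* they were *Klk1b4* (0.115), *ENSMUSG00000085651* (0.122) and *Slc16a5* (0.123), a monocarboxylate transporter. *Slc16a5* followed *Plin2* in that control A472 was the highest control, at 27.4 FPKM against 14.5 to 18.5 FPKM in the other controls, with 32.1 to 39.5 FPKM in knockout livers. For *Cidec* they were *ENSMUSG00000095134* (0.234), *Slc16a5* (0.250) and *ENSMUSG00000085651* (0.254). For *Hilpda* they were *Cldn4* (0.149), a tight junction protein, *Ier3* (0.150), a stress response gene, and *Ddr1* (0.167), a collagen receptor. *Ier3*, like *Hilpda*, was lowest in *Usp39*-HKO mouse A469 at 3.09 FPKM and highest in mouse A474 at 7.83 FPKM. For *Fitm1* the nearest was *Ppp1r3b* (0.334), a glycogen-targeting subunit of protein phosphatase, which fell from 30.2 ± 3.61 to 12.8 ± 2.87 FPKM (SD), followed by *ENSMUSG00000098741* (0.341) and *ENSMUSG00000090708* (0.377). Without control A475 the calls of *Ppp1r3b* (log2 fold change -1.38, edgeR adjusted p = 0.00408) and *ENSMUSG00000098741* held. That of *ENSMUSG00000090708* was lost (edgeR adjusted p = 0.147). The calls of *ENSMUSG00000095134* and of the 3 genes nearest to *Hilpda* held, and those of the 3 nearest to *Plin2* were lost. This too is description only, since the genes were picked by likeness. *Cldn4* was at most at 0.333 FPKM in controls and passed the filter through the knockout livers.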

How the data were processed

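Paired-end reads of NovaSeq libraries (NEB Next Ultra kit, liver RNA, 1 library per mouse) were aligned by the authors to mm10 with HISAT2 and counted per gene with featureCounts, and the submitters' processing notes also name Trim Galore 0.6.1, FastQC 0.11.9, Picard and DESeq2. The annotation release and the strand setting are not given in the sources used here. The authors deposited raw counts per gene and mouse and FPKM, which the counts, exon lengths and totals gave back within 4.98e-07. The authors' own comparison (fold changes and p-values) was not used. The 55699 entries held 55385 gene identifiers, repeats being read once, and 28412 genes had a count. Of the identifiers, 55144 are in GENCODE vM21, which gave coordinates and exons on GRCm38. The exon length deposited equals GENCODE vM21 for 9 of the 10 genes, *Plin4* differing (6350 against 5777 bases).

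Genes with at least 0.5 FPKM in at least 4 of 8 mice were tested, 14340 in all, with edgeR 4.0.16 (quasi-likelihood, TMM, R 4.3.3, genotype as the only term). P-values were two-sided and Benjamini-Hochberg adjusted over all genes tested, with calls at 0.05, and a standard error is the size of the fold change divided by the square root of F. Single values were tested with exact permutation tests on log2(FPKM + 1), a pseudocount of 1. Scaled CPM used library sizes multiplied by TMM factors. TMM factors were 0.912 to 0.940 (control) and 1.01 to 1.19 (knockout), and depths were 8589636 to 10418450 counts. The labels mark mice as separate samples and name no batch. Alternatives were DESeq2 1.42.0, limma 3.58.1 on log2(FPKM + 1) and log2(FPKM + 0.1), median-ratio factors, no TMM, other filters, robust dispersions, the study's cutoff and leaving out each mouse. Scripts were tested on simulated data.

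The 10 genes, the gene lists and the rule for naming genes were chosen with earlier results of these data known. Named were the 10 genes, *Usp39*, *Plin1*, of each pathway list up to 6 called genes with the largest log2 fold change and the 2 with the highest FPKM, for each called gene the 3 with the nearest profile, exon overlaps and chromosomal neighbours, and markers of cell types. One gene of the PPAR target list is not reported here and was left out of that list's counts. *Pnpla2*, *Abhd5* and *Pparg* were named after their values were seen. Promoters and older symbols came from RefSeq (GRCm38.p6), and *Spart* was matched under an older symbol.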

Additional observations from a re-analysis of the deposited data

Results flagged for a closer look

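In groups of 4 mice, a mouse was looked at again where its gap to the next mouse took up most of the range of its group (Dixon's test). Of 56 groups of 4 checked, 6 had such a mouse, and chance gives about 1 in 20 groups. *Fitm1* in control A475 was at 9.79 FPKM against 3.36 to 4.15 FPKM in the other controls. The summed perilipin FPKM of control A472 was 499.5 against 334 to 352 in the other controls, and in the same mouse *Cidec* over *Cideb* was 3.56 against 2.09 to 2.28. In *Usp39*-HKO mouse A469 *Plin2* made up 75.5% of perilipin FPKM against 83.7 to 84.2% in the other 3, *Plin5* 22.7% against 13.3 to 14.2%, and *Plin2* over *Plin5* was 3.33 against 5.93 to 6.32. The 3 values of mouse A469 share the same pair of genes and are not separate observations.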

How the results depend on the processing

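*Hilpda* passed under all alternatives run, and the directions of *Plin2*, *Cidec*, *Hilpda* and *Fitm1* held in all of them, whereas the calls of *Plin2*, *Cidec* and *Fitm1* were each lost in 3 of the 8 fits without 1 mouse. Over those 8 fits the genes called in all ranged from 1931 to 3510, with 2043 without control A475. The coat and CIDE genes called higher ranged from 1 to 3 and lower from 0 to 1. The droplet neighbours ranged from 1 to 2 higher and 2 to 5 lower, PPAR targets from 0 to 2 lower, PPAR receptors from 0 to 1 higher and 1 to 3 lower, and hypoxia targets from 0 to 2 higher. A filter at a mean of 5 FPKM gave 1595 calls of fewer genes tested, 0 coat genes lower since *Fitm1* is not tested there, 3 droplet neighbours lower and 0 hypoxia targets higher. Without TMM and with limma at either pseudocount, 5 droplet neighbours were higher (3 lower without TMM, 2 with limma), 0 PPAR targets were lower and 1 PPAR receptor was higher. DESeq2 called 5 PPAR targets lower and 1 hypoxia target higher, no filter gave 1 hypoxia target higher, and the study's cutoff 3 droplet neighbours and 2 PPAR targets lower. The cause of these differences was not tested.

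Log2 fold changes near 0 changed sign. Without 1 mouse *Plin3* ranged from -0.038 to 0.14, *Plin5* from -0.14 to 0.34, *Cideb* from -0.15 to 0.16 and *Fitm2* from -0.052 to 0.11. *Cideb* was -0.017 with no filter, -0.0042 with filterByExpr and -0.034 in scaled CPM, and *Fitm2* was -0.026, -0.012 and -0.0051. The shares and ratios within a liver that were rerun (*Plin2* and *Plin5* among perilipins, *Cidec* among CIDE genes, *Plin2* over *Plin3*, *Plin5* and *Fitm2*, *Cidec* over *Cideb* and *Hilpda* over *Plin2*) kept their direction without each mouse, alternatives chosen after seeing the data, as were those of markers and neighbours. Depth limits *Cidea* (at most 13 counts per mouse) and *Fitm1* (8 to 99 counts). With 4 mice per group no exact p can go below 0.0286, and p-values measure the spread between these mice only. No paired analysis was made, because the labels do not say which of the mice shared a litter.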
